A study of Mus musculus with 8 samples.

Results

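The clustered protocadherins are 58 protein-coding genes of the 33971 genes (18030 protein coding) in the table, chosen by biotype and by symbol (*Pcdha*, *Pcdhac*, *Pcdhb*, *Pcdhga*, *Pcdhgb* and *Pcdhgc* followed by a number), with no use of their values. They were measured in whole brains of wild-type (WT) mouse embryos at E14.5, from WT females mated with WT males. The females received either a choline-deficient diet (CDD, 4 brains) or a normal chow diet (ND, 4 brains) from the day of mating, although another of the study's descriptions places the start of the CDD earlier. Poly-A RNA was sequenced in bulk, and the comparison asks which genes respond in the embryonic brain when the mother lacks dietary choline. How many dams and litters were used is not given, so p-values measure the spread between these brains, which may share a litter. In bulk tissue, fewer cells of a type and less RNA per cell cannot be told apart.

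Clustered protocadherins are cadherin-like adhesion proteins of neurons that bind copies of themselves on other cells. Each neuron switches on its own small combination of genes by choosing among promoters, and the resulting surface code lets branches of a cell recognize and avoid each other. An alpha or gamma gene joins its own large variable exon, which encodes the extracellular part and the membrane span, to constant exons used by its whole cluster. A beta gene has a single large exon of its own. The C-type members (*Pcdhac1*, *Pcdhac2*, *Pcdhgc3*, *Pcdhgc4* and *Pcdhgc5*) stand at the ends of the alpha and gamma arrays and are switched on in many neurons without that random choice.

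All 58 members were listed on the plus strand of chromosome 18. The alpha cluster holds 14 members (position 37063237 to 37320714), the beta cluster 22 (37397991 to 37657532) and the gamma cluster 22 (37794846 to 37974926), on a genome build that the sources used here do not name. Library totals were 31770217 to 43121170 counts per brain, and the members together held 16893 to 24012 counts per brain. Levels are given as CPM, in which a gene's reads are set against all reads of its library after TMM scaling, and differences as log2 fold changes of CDD over ND with their standard error (SE). A gene is said to have risen or fallen where its adjusted p was under 0.05 in edgeR's quasi-likelihood test over 19367 genes.

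Some brains and marker lists stood apart. CDD replicate 2 carried transcripts of caudal hindbrain and spinal cord: the summed level of 10 such markers was 153.8 CPM there, against 53.2 to 59.2 CPM in the other CDD brains and 50.2 to 52.2 CPM in ND brains, and 2 of the 10 were under 1 CPM in every brain. The 12 markers of neural progenitors summed to 2317 to 2665 CPM in CDD and 2034 to 2191 CPM in ND brains, without overlap. Of these 12, 6 rose (50%, beside 4.24% of all genes tested) and 0 fell. The 14 markers of postmitotic neurons, the cells that use these genes most, summed to 7943 to 8862 CPM in CDD and 8155 to 8431 CPM in ND brains. Of these 14, 2 fell (*Snap25* and *Gap43*, 14.3%, beside 4.59% of all genes tested) and 0 rose. The list was evenly split, with 7 log2 fold changes above 0 and 7 below. All 26 of these progenitor and neuron markers reached at least 1 CPM in some brain. Their median count was 5554 for progenitor and 12887 for neuron markers, beside 508.5 over all genes tested. Small differences pass the threshold more readily at such counts, and these shares are not from genes of like count. The part of these marker shifts in the other results was not tested.

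The members differed in how much exon belonged to each gene alone. Because alpha members share constant exons, and gamma members share theirs, reads on those exons cannot be given to a single gene. By the GENCODE M21 annotation, a median of 2475 bp per alpha member (404 to 3028 bp), 3714 bp per beta member (1107 to 8695 bp) and 2587 bp per gamma member (0 to 4614 bp) were shared with no other gene on either strand. The share of the exon's 100-base windows that occurred once was 43.8% for the median alpha, 99.8% for the median beta and 55.0% for the median gamma member. The listed length of all 58 members includes the shared part, so a level per listed length is lower than a level per unshared length for alpha and gamma members.

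Of the 58 members, 54 had enough counts to be tested. The other 4 had a mean count under 10 and are named for that reason: *Pcdha4* (1 to 11 counts per brain), *Pcdha11* (2 to 8), *Pcdhb1* (0 to 3) and *Pcdhga10* (0 to 6). *Pcdha4* kept 404 bp of exon to itself, having 2410 bp in common with the transcript *Gm42416*. That transcript is in GENCODE M21 but has no counts in these data, and whether the counting included it is not given. *Pcdhga10* kept 0 bp, since the antisense transcript *Gm26672* covers 2613 bp of it. *Pcdha11* kept 1268 bp beside the antisense transcripts *Gm10545* (2486 bp shared, 3 to 15 counts per brain) and *Gm10544* (852 bp shared, 107 to 201 counts per brain). Whether the counting used strand is not given in the sources used here, so reads of such a gene and its antisense partner cannot be told apart. Little unshared exon and a low count did not always go together. *Pcdhb1* had all its 2588 bp unshared and at most 3 counts in any brain, whereas *Pcdhga11* had 1256 bp unshared and 466 to 701 counts. The low counts of *Pcdha4* also bound what the constant exons added to it: its count in a brain, constant exons included, was at most 11, whereas *Pcdha3*, with the same constant exons, had 251 to 395.

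**Figure D1:**
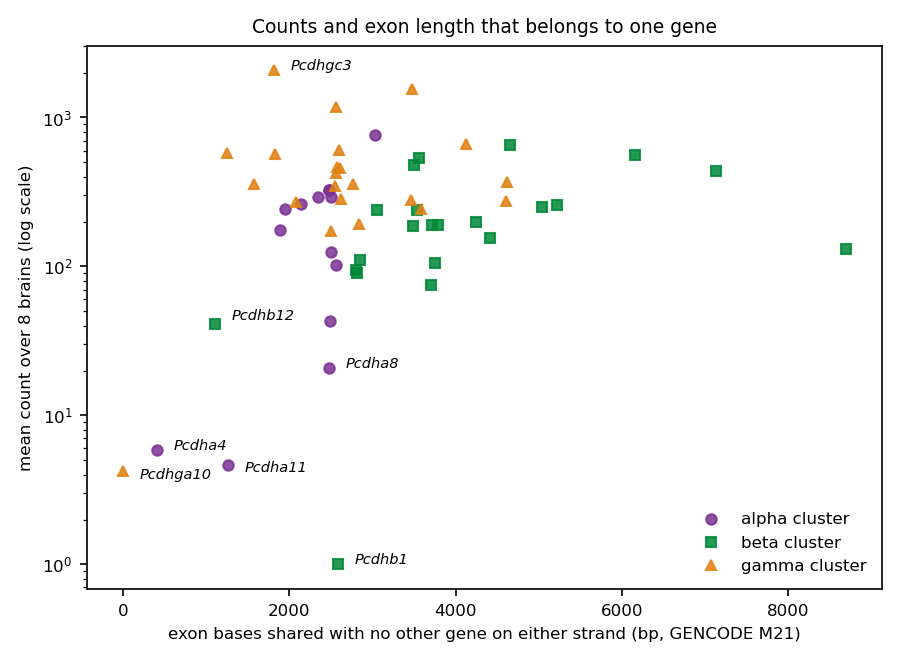
Mean count over the 8 brains (log scale) against the exon length that a member shares with no other gene on either strand (bp), for 14 alpha (circles), 22 beta (squares) and 22 gamma members (triangles). *Pcdha4*, *Pcdha11* and *Pcdhga10* lie at the lower left with at most 1268 bp, other members with as little lie higher, and *Pcdhb1* lies lowest although none of its 2588 bp are shared.

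Within the alpha cluster, the C-type member *Pcdhac2* had the highest level. *Pcdhac2* is known for its part in the spacing of serotonergic axons, and it was at 3.49 ± 0.519 CPM per kb of listed length in CDD and 3.91 ± 0.199 in ND brains (SD, n = 4 each). *Pcdha3* (1.71 ± 0.211 in CDD and 1.79 ± 0.158 in ND brains) and *Pcdha9* (1.72 ± 0.304 and 1.77 ± 0.213) followed and did not differ from each other beyond their spread. Over 8 brains, *Pcdhac2* was at 3.70 CPM per listed kb and at 7.20 per unshared kb, and it stood first on each scale. *Pcdha8* had 2478 bp of unshared exon but 8 to 33 counts per brain, and *Pcdha1* had 2489 bp and 23 to 59 counts, close to the 2472 bp of *Pcdha3*. These low counts thus stood on as much unshared exon as that of the abundant alternates.

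In the beta cluster, *Pcdhb20* (4.32 ± 0.563 CPM per kb in CDD and 4.33 ± 0.380 in ND brains), *Pcdhb17* (3.96 ± 0.554 and 4.08 ± 0.395) and *Pcdhb7* (4.02 ± 0.207 and 3.87 ± 0.290) stood highest, and their levels overlapped. These are adhesion receptors without the constant cytoplasmic part. The fourth in order, *Pcdhb22*, was at 2.45 CPM per listed kb over 8 brains, below those 3. The median beta level was 1.42 CPM per kb by listed and by unshared length.

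In the gamma cluster, *Pcdhgc3* had the highest level of all members, at 10.9 ± 0.852 CPM per listed kb in CDD and 10.7 ± 0.408 in ND brains. *Pcdhgc4*, a C-type member that neurons need to survive, followed at 7.33 ± 0.50 and 8.49 ± 0.405, and *Pcdhgb6* was at 7.33 ± 0.792 and 7.13 ± 0.580. *Pcdhgc4* and *Pcdhgb6* overlapped in CDD brains, whereas in ND brains *Pcdhgc4* was above *Pcdhgb6* by more than their spread. Per unshared kb the order changed: *Pcdhgc3* was at 32.7, *Pcdhgb6* at 13.2, *Pcdhga11* at 13.2 and *Pcdhgc4* at 12.7 CPM, with the last 3 inside their spread. The values for *Pcdhgc3* and *Pcdhga11* depend on strand, because the antisense transcripts *BC037039* and *Gm26672* cover 1559 bp and 1381 bp of them. With bases shared on the same strand alone left out, *Pcdhgc3* was at 17.6 CPM per kb, still the highest, and *Pcdhga11* was at 6.27.

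**Figure D2:**
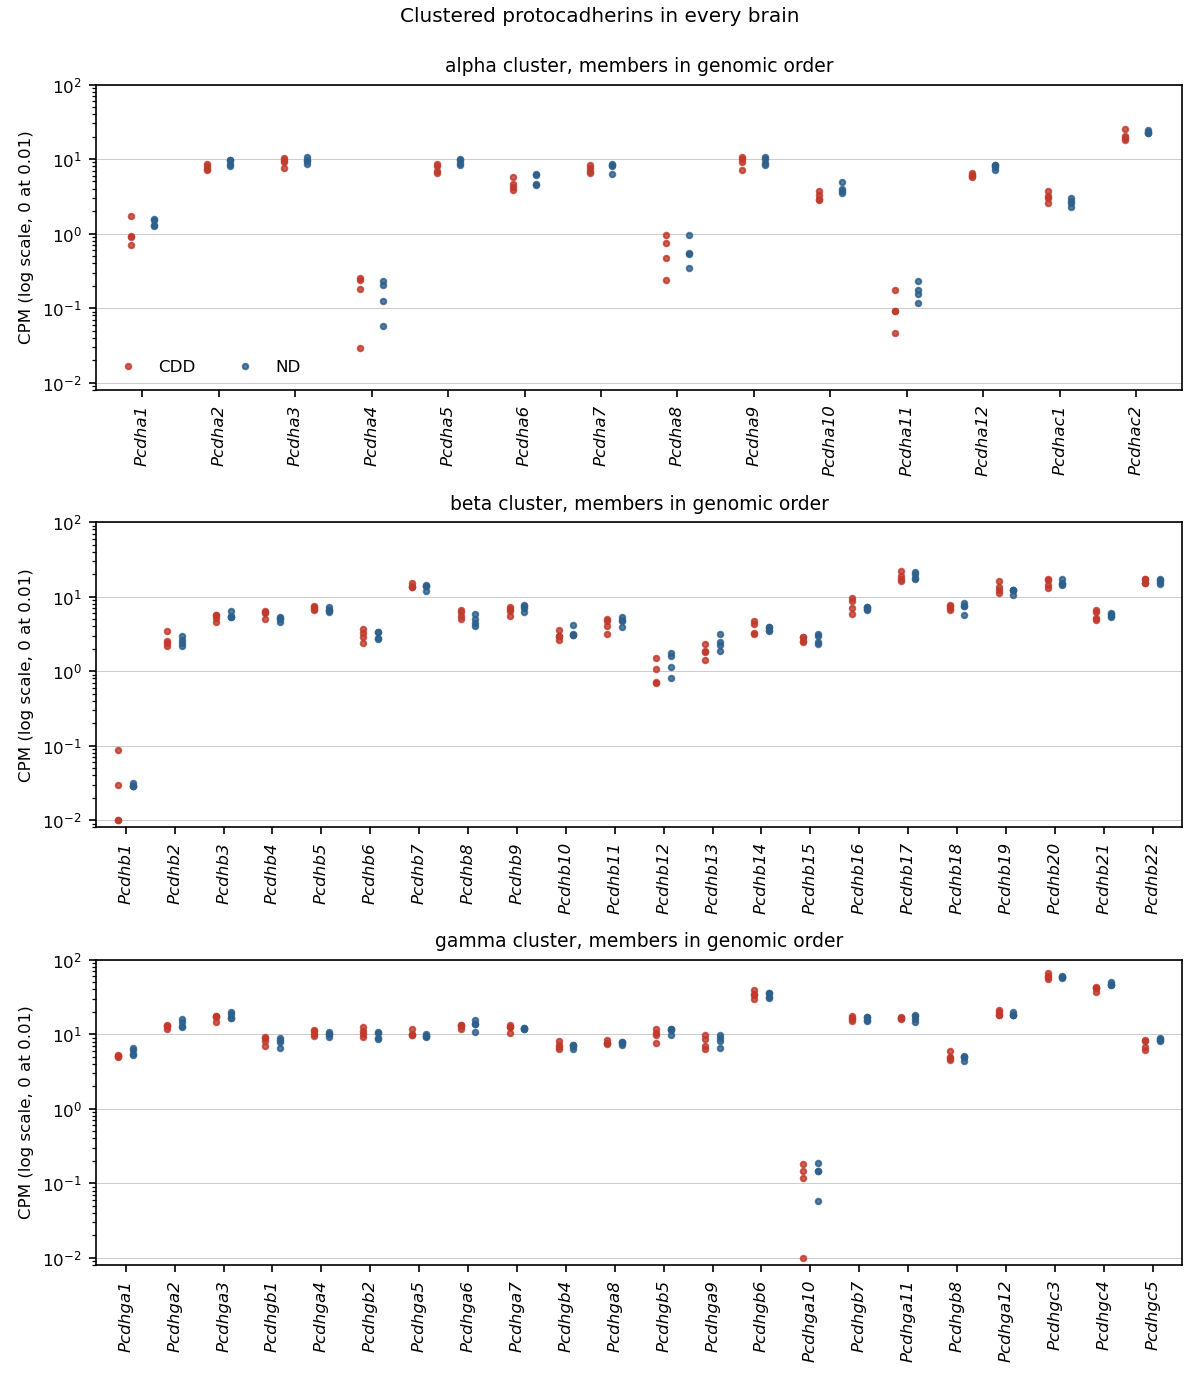
Level of each of the 58 members in each brain (CPM, log scale, with a count of 0 drawn at 0.01), in genomic order within the alpha, beta and gamma clusters, CDD brains in red and ND brains in blue. CDD and ND points lie over each other for most members, the 4 untested members fall below the rest, and *Pcdhgc3* and *Pcdhgc4* stand highest.

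Between the diets, few members passed the test. Of the 54 tested, 0 rose and 2 fell in CDD brains, *Pcdha12* and *Pcdhgc4*, which is 3.70% of members where 8.83% of all genes tested changed, 4.59% of them by falling and 4.24% by rising. At an unadjusted p under 0.05 stood 8 members (1 higher and 7 lower), beside 23.9% of all genes (11.8% higher and 12.1% lower). The brains of the diets did not overlap for 3 members, all lower in CDD, where 7.39% of all genes did not overlap and were lower and 7.65% did not overlap and were higher. The median log2 fold change over the tested members was -0.01, with 24 above 0 and 30 below, and over all genes -0.0038. Protein-coding genes with mean counts from 97 to 637 changed in 10.5% of cases, with a median of -0.04. The median absolute log2 fold change was 0.087 for members and 0.113 for all genes tested.

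*Pcdha12* (ENSMUSG00000103310), one of the alternate alpha members that neurons choose between, was at 5.86, 5.77, 6.53 and 6.09 CPM in CDD replicates 1 to 4, and at 7.08, 7.91, 8.24 and 8.20 CPM in ND replicates 1 to 4. Every CDD brain was below every ND brain, and ND replicate 1 was the nearest to the CDD brains. The means were 6.06 ± 0.341 CPM in CDD and 7.86 ± 0.540 CPM in ND brains (SD, n = 4), a log2 fold change of -0.37 (SE 0.096, adjusted p = 0.0217 in edgeR's test). *Pcdha12* shares 531 bp with the antisense transcript *Gm10545*, which had 3 to 15 counts per brain. The call was lost without CDD replicate 1 (adjusted p = 0.0504), ND replicate 3 (0.0915) or ND replicate 4 (0.0816), each by edgeR, and the log2 fold change stayed between -0.42 and -0.35 in all 19 alternatives.

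*Pcdhgc4* (ENSMUSG00000023036) was at 37.0, 41.3, 42.3 and 43.4 CPM in CDD replicates 1 to 4, and at 45.9, 46.2, 50.8 and 47.2 CPM in ND replicates 1 to 4. Here too the CDD brains lay below every ND brain, with CDD replicate 1 lowest and ND replicate 3 highest. The means were 41.0 ± 2.80 and 47.5 ± 2.27 CPM (SD, n = 4), a log2 fold change of -0.21 (SE 0.058, adjusted p = 0.0274 in edgeR's test). The gene held 12.4% ± 0.335 of the gamma cluster's counts in CDD and 14.0% ± 0.429 in ND brains (SD, n = 4). The call was lost with an offset for GC content (log2 fold change -0.17, adjusted p = 0.0818 in edgeR's test). It was also lost without CDD replicate 1 or 2 or without ND replicate 1, 3 or 4, where the adjusted p by edgeR ran from 0.0538 to 0.143. The log2 fold change stayed between -0.24 and -0.16 in all 19 alternatives.

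The other C-type members gave values in both directions and 0 of these 4 passed the threshold. *Pcdhgc3* was at 55.1, 57.8, 60.7 and 66.1 CPM in CDD and 59.5, 61.4, 59.5 and 56.0 CPM in ND brains, which overlapped widely (log2 fold change 0.02, SE 0.055, adjusted p = 0.874 in edgeR's test). *Pcdhgc5* was at 8.30, 6.14, 6.81 and 8.05 CPM in CDD and 8.81, 8.22, 8.65 and 8.46 CPM in ND brains. In *Pcdhgc5*, CDD replicates 2 to 4 lay below every ND brain, while CDD replicate 1 lay among them (log2 fold change -0.22, SE 0.102, adjusted p = 0.185 in edgeR's test). *Pcdhac2* was at 17.8, 19.4, 20.1 and 24.9 CPM in CDD and 22.4, 22.9, 24.7 and 22.2 CPM in ND brains. CDD replicate 4 alone reached above the ND brains (log2 fold change -0.16, SE 0.085, adjusted p = 0.248 by edgeR). Of the 8 fits with a brain left out, *Pcdhac2* passed the threshold in 1, that without CDD replicate 4 (log2 fold change -0.27, adjusted p = 0.0150 by edgeR). *Pcdhac1* was at 2.99, 2.61, 3.76 and 3.17 CPM in CDD and 2.55, 2.25, 2.78 and 2.96 CPM in ND brains, with CDD replicate 2 inside the ND range (log2 fold change 0.25, SE 0.150, adjusted p = 0.323 in edgeR's test). The 3 gamma C-type members together took 32.6% ± 0.376 of the gamma counts in CDD and 33.9% ± 0.888 in ND brains (SD, n = 4).

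Most alpha members had values below 0. Of the 12 tested alpha members, 10 had a log2 fold change below 0, with a median of -0.19. Among the alternates *Pcdha1* to *Pcdha12* this was 9 of 10 with a median of -0.22. Over all genes tested, 9860 of 19367 were below 0. Of protein-coding genes with mean counts from 97 to 637, 2143 of 3652 were below 0. Of the 12 alpha members, *Pcdha12* passed the threshold (8.33%, beside 8.83% of all genes tested). An unadjusted p under 0.05 in edgeR's test was had by 4 of the 12, beside 23.9% of all genes tested. The other 3 of those 4, named after their values were seen, were *Pcdha5* (-0.30, adjusted p = 0.0769 by edgeR), *Pcdha10* (-0.34, 0.148) and *Pcdha2* (-0.21, 0.187). The widest difference was that of *Pcdha1*, at 0.694, 1.71, 0.929 and 0.905 CPM in CDD and 1.29, 1.501, 1.59 and 1.25 CPM in ND brains. For *Pcdha1*, CDD replicate 2 stood above every ND brain and the other CDD brains stood below them, with a log2 fold change of -0.41 (SE 0.243, adjusted p = 0.328 in edgeR's test). The most abundant alternates were close to 0, *Pcdha3* at -0.06 (SE 0.099, adjusted p = 0.753) and *Pcdha9* at -0.04 (SE 0.119, adjusted p = 0.884, by edgeR). The median of the alpha members stayed negative in every alternative, between -0.27 and -0.12. It was nearest to 0 without CDD replicate 1, where 8 of the 12 were below 0.

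**Figure D3:**
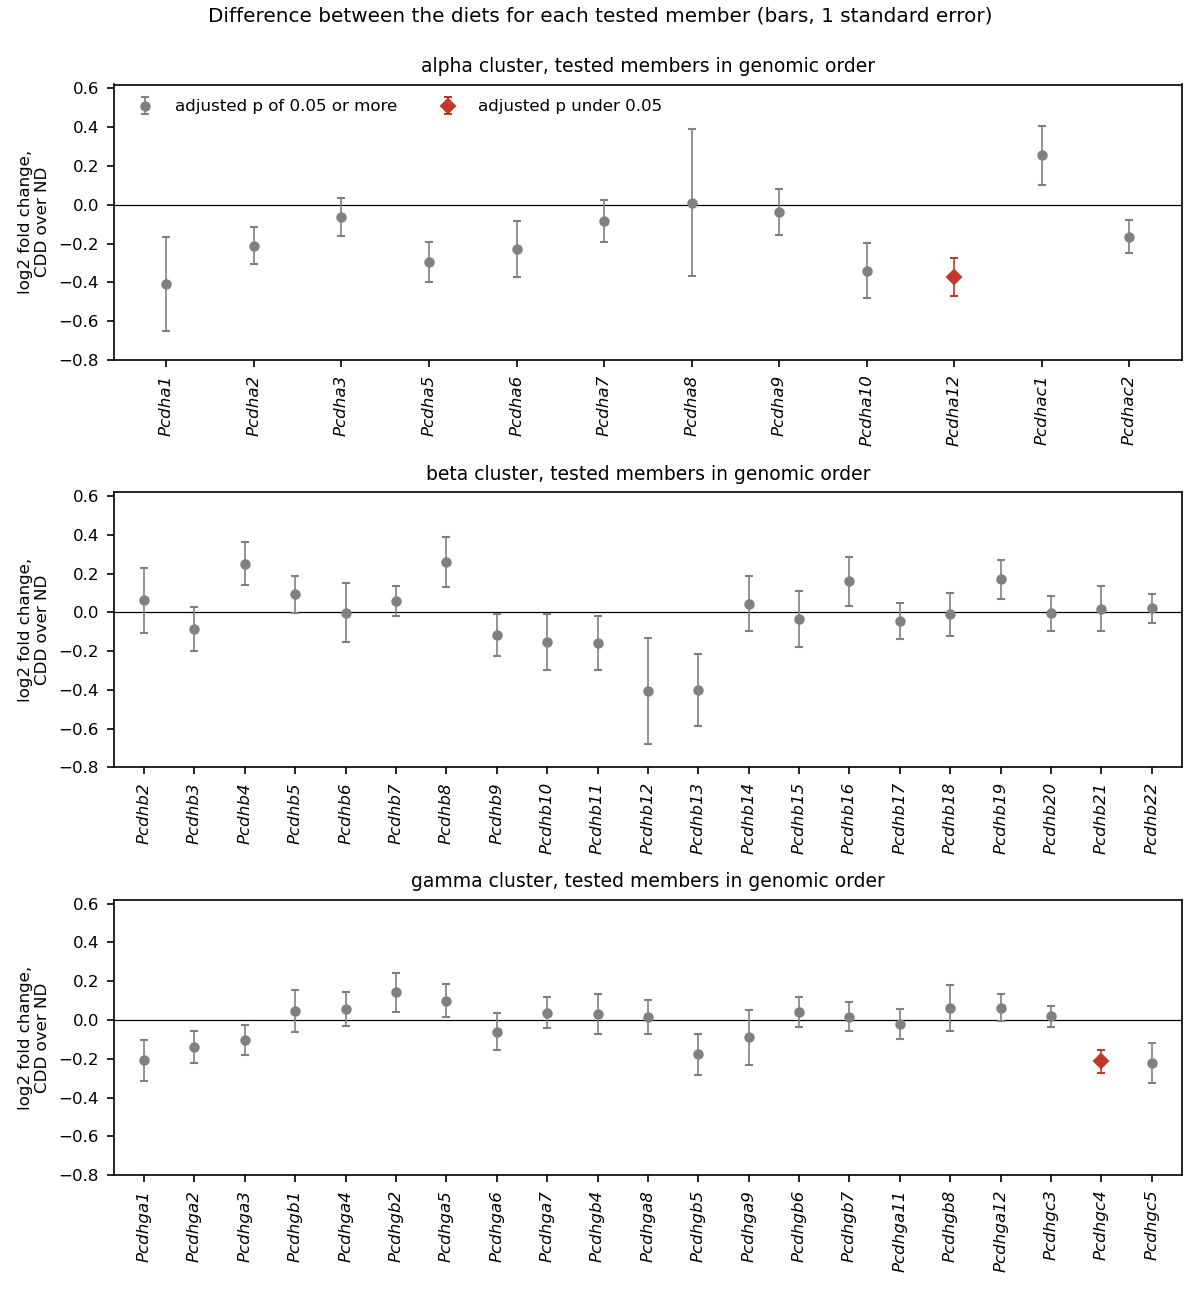
Log2 fold change of CDD over ND for the 54 tested members in genomic order, with bars of 1 standard error from edgeR's fit. Red diamonds mark *Pcdha12* and *Pcdhgc4*, the members with an adjusted p under 0.05. Points lie mostly below 0 in the alpha cluster and on each side of 0 in the beta and gamma clusters.

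The beta members were split evenly, with 10 above 0 and 11 below, a median of -0.0011 and 0 of 21 past the threshold in edgeR, DESeq2 or limma-voom. The sign of that median turned with the scaling (0.0027 with RLE and -0.0057 with upper-quartile normalization), so no direction is given for the beta members. *Pcdhb12* had the widest difference, at 0.694, 1.07, 1.49 and 0.724 CPM in CDD and 1.14, 0.813, 1.76 and 1.62 CPM in ND brains, with the groups interleaved. Its log2 fold change was -0.41 (SE 0.275, adjusted p = 0.401 in edgeR's test) on 23 to 64 counts per brain, and 1927 bp of it are covered by the antisense transcript *Gm37446*. At an unadjusted p under 0.05 stood *Pcdhb4* (log2 fold change 0.25, adjusted p = 0.169 by edgeR) and *Pcdhb13* (-0.40, 0.196), both named after their values were seen. The abundant beta members differed by less than their errors, *Pcdhb7* at 0.06 (SE 0.076), *Pcdhb17* at -0.05 (SE 0.092) and *Pcdhb20* at -0.01 (SE 0.091).

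*Pcdhb20*, the highest beta member per length, shows how far single brains moved. It was at 14.2, 17.0, 13.2 and 17.2 CPM in CDD replicates 1 to 4 and at 14.3, 15.3, 14.6 and 17.3 CPM in ND replicates 1 to 4. CDD replicates 2 and 4 and ND replicate 4 were high and the other brains low, so the diets overlapped throughout (adjusted p = 0.983 by edgeR). *Pcdhb17* was at 16.1, 22.0, 17.0 and 18.7 CPM in CDD and 17.1, 21.1, 19.98 and 17.9 CPM in ND brains (adjusted p = 0.817 by edgeR). *Pcdhb7* was at 13.6, 13.6, 15.1 and 14.0 CPM in CDD and 14.1, 13.8, 12.1 and 14.3 CPM in ND brains (adjusted p = 0.709 by edgeR). Over these 3 genes, the highest brain of the 8 and the lowest brain each came from either diet.

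Of the 21 tested gamma members, 12 had a log2 fold change above 0 and 9 below, with a median of 0.02. The threshold was passed by 1 (4.76%, beside 8.83% of all genes tested). Without CDD replicate 4, 15 of the 21 were below 0 and the median was -0.03. No direction is therefore given for the gamma members. With all brains, the gamma B members were above 0 in 6 of 7 cases, with 0 past the threshold. *Pcdhgb6*, the most abundant of them, was at 30.2, 33.3, 34.8 and 39.1 CPM in CDD and 30.7, 35.4, 31.3 and 36.0 CPM in ND brains, which overlapped (log2 fold change 0.04, SE 0.075, adjusted p = 0.797 in edgeR's test). The gamma A members were split, with 5 above 0 and 6 below. *Pcdhga1*, named because its brains did not overlap, was at 5.25, 5.01, 5.06 and 5.10 CPM in CDD and 6.64, 5.28, 6.16 and 5.51 CPM in ND brains. Its CDD brains lay close together and just below ND replicate 2 (log2 fold change -0.21, SE 0.107, adjusted p = 0.248 in edgeR's test).

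Counts were also summed over each cluster. The alpha sum was 69.9, 81.1, 81.2 and 89.9 CPM in CDD and 89.5, 86.0, 96.6 and 89.3 CPM in ND brains, with CDD replicate 4 inside the ND range and the other CDD brains below it. The means were 80.5 ± 8.18 and 90.4 ± 4.46 CPM (SD, n = 4), a log2 ratio of -0.17. The beta sum was 151 ± 14.51 CPM in CDD and 149 ± 2.75 CPM in ND brains (SD, n = 4), and the gamma sum was 332 ± 23.2 and 340 ± 6.63 CPM (SD, n = 4), with overlapping brains. No test was made on these sums, which are given as a description.

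**Figure D4:**
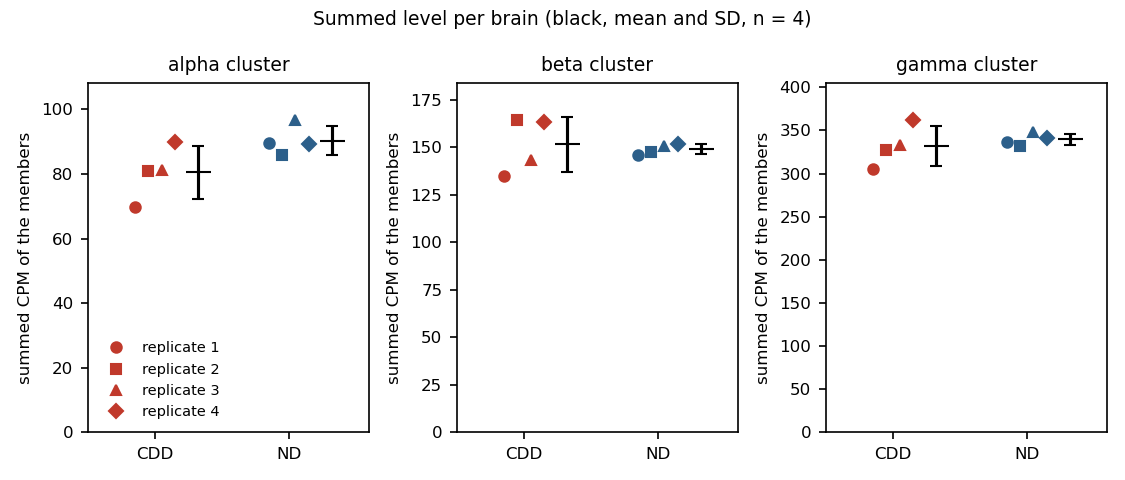
Summed level of the members of each cluster in each brain (CPM, axes from 0), with the replicate number as the marker and the mean and SD of 4 brains in black. In all 3 clusters CDD replicate 1 is lowest of its diet, and the CDD brains spread wider than the ND brains.

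The CDD brains differed among themselves more than the ND brains did in each cluster sum. CDD replicate 1 was the lowest of its diet in 34 of 54 tested members, with a median deviation of -0.14 on the log2 scale from the mean of the CDD brains. CDD replicate 4 was the highest in 30 of 54, with a median deviation of 0.12, and the tenth of genes with the longest listed length deviated by 0.080 in the same brain. In ND brains the median deviations lay between -0.05 and 0.06. The median coefficient of variation within a diet was 11.1% for the tested members and 9.36% for protein-coding genes of like count. Without CDD replicate 1, 0 members passed the threshold. Without CDD replicate 4, 4 members fell (*Pcdha12*, *Pcdha5*, *Pcdhac2* and *Pcdhgc4*), and without CDD replicate 2, 1 member did (*Pcdha12*).

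Genes of factors known to act on the promoters of these clusters were examined beside them. At these promoters, CTCF and the cohesin ring hold an active gene against a distant enhancer, and DNA methylation and the repressors SMCHD1 and SETDB1 keep other promoters silent. Of 22 such genes, 7 rose (31.8%, beside 4.24% of all genes tested) and 0 fell, with 20 above 0 and a median log2 fold change of 0.10. Their median count was 5587 and their median SE 0.049, beside 508.5 and 0.084 over all genes tested. Small differences thus pass the threshold more readily among them, and the 2 shares are not from genes of like count. The 5 with the smallest p are subunits, a loader or a regulator of cohesin, namely *Stag2* (0.25, SE 0.056, adjusted p = 0.0111 by edgeR), *Nipbl* (0.22, SE 0.051, 0.0132), *Smc1a* (0.19, SE 0.047, 0.0184), *Smc3* (0.20, SE 0.052, 0.0243) and *Pds5a* (0.17, SE 0.048, 0.0296). The other 2, *Wapl* and *Stag1*, also belong to the cohesin machinery and are named after their values were seen. Cohesin also holds sister chromatids together in dividing cells, and the progenitor markers *Top2a* (0.44, adjusted p = 0.00287 by edgeR) and *Nes* (0.47, 0.00344) rose in the same brains. The part of progenitor content in the cohesin values was not tested.

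*Stag2*, a cohesin subunit, was at 115, 124, 107 and 134 CPM in CDD replicates 1 to 4 and at 103, 102, 96.7 and 101 CPM in ND replicates 1 to 4. All CDD brains lay above all ND brains, CDD replicate 4 highest and CDD replicate 3 nearest to them. *Ctcf* itself was at 159, 150.3, 153 and 161 CPM in CDD and 148, 152, 147 and 149.5 CPM in ND brains, with CDD replicate 2 inside the ND range (log2 fold change 0.07, SE 0.040, adjusted p = 0.336 in edgeR's test). Values just short of the threshold were those of the cohesin subunit *Rad21* (0.13, adjusted p = 0.0657 by edgeR) and of *Smchd1* (0.16, adjusted p = 0.0765 by edgeR). *Setdb1* (0.05), the methyltransferase gene *Dnmt3b* (-0.04) and the repressor gene *Rest* (0.09) had adjusted p-values of 0.499, 0.834 and 0.366 by edgeR. These 7 calls depended on single brains, with 1 left without ND replicate 1, 0 without ND replicate 3, 2 without ND replicate 4 and 4 without CDD replicate 2. Their sizes moved little: without ND replicate 3, where calls over all genes fell from 1710 to 471, the log2 fold change was 0.23 for *Stag2*, 0.21 for *Nipbl*, 0.18 for *Smc1a*, 0.19 for *Smc3* and 0.16 for *Pds5a*.

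Of 18 genes of proteins that bind, cleave or signal with clustered protocadherins, 0 rose and 2 fell (11.1%, beside 4.59% of all genes that fell and 8.83% that changed), with a median log2 fold change of -0.02. Their median count was 4271, beside 508.5 over all genes tested, so these shares too are not from genes of like count. *Ptk2b*, the gene of the kinase PYK2 which the alpha and gamma proteins inhibit, was at 1.93, 1.54, 2.88 and 2.32 CPM in CDD and 3.10, 3.34, 3.50 and 3.39 CPM in ND brains. Every CDD brain lay below every ND brain, CDD replicate 3 nearest (log2 fold change -0.61, SE 0.169, adjusted p = 0.0306 in edgeR's test). *Wasf1*, a subunit of the actin-regulating WAVE complex, fell by 0.14 (SE 0.040, adjusted p = 0.0356 by edgeR), a call lost with an offset for gene length. Each of these 2 calls was lost without CDD replicate 1 or 2 or ND replicate 1, 3 or 4, and that of *Ptk2b* also without ND replicate 2. *Ptk2*, the gene of the related kinase FAK, was at 0.11 on the log2 scale (adjusted p = 0.114 by edgeR), and is named because it is the partner most like *Ptk2b*.

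Among 11 protocadherin genes outside the clusters, 0 rose and 2 fell (18.2%, beside the same 4.59% and 8.83% of all genes), with a median of -0.07. Their median count, 2026, was also above that of all genes tested. *Pcdh8*, an activity-regulated protocadherin gene, was at 88.3, 80.2, 91.9 and 76.4 CPM in CDD and 102, 104, 107 and 100.3 CPM in ND brains (log2 fold change -0.29, SE 0.053, adjusted p = 0.00287 in edgeR's test). *Pcdh1*, which lies on chromosome 18 beyond the gamma cluster (38318967 to 38345106), was at 102, 105, 111 and 111 CPM in CDD and 121, 123, 128 and 127 CPM in ND brains (-0.22, SE 0.041, adjusted p = 0.00354 in edgeR's test). For each of these 2 genes the diets did not overlap. Both calls held with each brain left out, and that of *Pcdh1* was lost with an offset for GC content (adjusted p = 0.108 by edgeR).

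Of 12 other protein-coding genes at the locus, those lying between the clusters or nearest on either side, 1 rose and 1 fell (16.7% together, beside 8.83% of all genes). *Taf7*, a subunit gene of the general transcription factor TFIID between the beta and gamma clusters (37773544 to 37777257), was at 23.2, 23.0, 21.2 and 24.1 CPM in CDD and 20.3, 19.0, 18.5 and 19.2 CPM in ND brains. The diets did not overlap (log2 fold change 0.25, SE 0.064, adjusted p = 0.0224 by edgeR). The call was lost without ND replicate 2, 3 or 4. *Rell2* (38088132 to 38092232), beyond the gamma cluster, was at 13.1, 18.7, 18.5 and 15.02 CPM in CDD and 21.2, 19.1, 21.6 and 20.1 CPM in ND brains (-0.33, SE 0.095, adjusted p = 0.0421 in edgeR's test). The call of *Rell2* was lost with an offset for gene length or GC content and without CDD replicate 1 or 4 or ND replicate 1, 3 or 4. The members between them on the chromosome include *Pcdhgc3* at 0.02 and *Pcdhgc4* at -0.21.

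**Figure D5:**
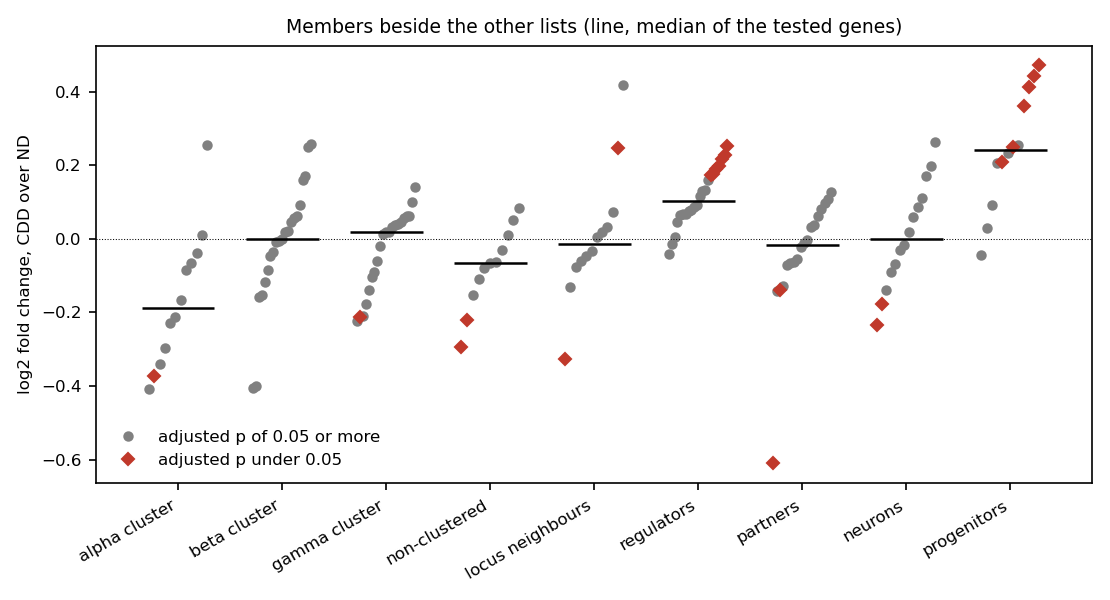
Log2 fold changes of CDD over ND for the tested members of the 3 clusters, beside protocadherins outside the clusters, genes at the locus, promoter regulators, protein partners and markers of neurons and progenitors, each point a gene and each line a median. Red diamonds have an adjusted p under 0.05 in edgeR's test. The medians are -0.19 for alpha members, 0.10 for regulators and 0.24 for progenitor markers.

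Markers of serotonergic neurons, choroid plexus, caudal tissue and blood were also measured. Of 7 markers of serotonergic neurons, which use *Pcdhac2*, 0 passed the threshold. They summed to 59.0 to 84.0 CPM in CDD (highest in CDD replicate 2) and 53.2 to 59.1 CPM in ND brains, with overlap. Of the 7, 5 log2 fold changes were above 0 and 2 below, those of *Tph2* (-0.22) and *Slc6a4* (-0.09). *Gata3* gave the largest part of the sum (means of 22.0 CPM in CDD and 19.7 CPM in ND brains). *Lmx1b* was highest in CDD replicate 2 (23.7 CPM), the brain with the caudal transcripts. Of 6 choroid plexus markers, 1 rose (*Otx2*, log2 fold change 0.20), which is 16.7% beside 4.24% of all genes tested. The 6 markers summed to 254 to 571 CPM in CDD (highest in CDD replicate 1) and 353 to 390 CPM in ND brains. Of the 5 caudal markers tested, 0 passed the threshold. Of 8 erythroid genes, 2 rose (*Hbb-y* and *Hba-x*, 25%, beside 4.24% of all genes tested) and 0 fell. Above 0 stood 3 of the 8, *Hbb-y* (log2 fold change 2.24), *Hba-x* (1.67) and *Hbb-bh1* (0.91, adjusted p = 0.141 by edgeR). The other 5, *Hbb-bs*, *Hba-a1*, *Hbb-bt*, *Hba-a2* and *Alas2*, were below 0. The list was thus split by gene, and its median log2 fold change of -0.56 covers both directions. The 8 genes summed to 759 to 1416 CPM in CDD and 823 to 2983 CPM in ND brains, highest in ND replicate 3.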

How the data were processed

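For each gene and brain, the authors deposited the raw count of reads, a normalized signal (the count divided by a size factor per library) and FPKM made from it with the listed gene length. Per the labels, HISAT2 2.0.5, featureCounts 1.5.0-p3 and DESeq2 1.20.0 were used, while their settings, strand handling and genome build are not given in the sources used here. Their own fold changes and p-values were not used. Brains were grouped by the diet in their labels, and no batch is named. At totals of 31770217 to 43121170 counts, the common biological coefficient of variation was 0.0814.

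From the counts, genes were filtered with filterByExpr, scaled by TMM and tested with edgeR 4.0.16 (robust quasi-likelihood test, diet as the single term, Benjamini-Hochberg adjustment over 19367 genes, threshold 0.05) in R 4.3.3. The test was checked on simulated data. Sums and shares used scaled counts without a test. Exon sharing and GC content came from GENCODE M21, matched by gene identifier. All 58 listed lengths equalled the exon length there, and GC content was had for 97.7% of tested genes. Alternatives were DESeq2 1.42.0, limma-voom (limma 3.58.1), RLE and upper-quartile scaling, no count filter and a filter of 10 counts per brain. Others were replicate number as block, loess offsets (span 0.3) for gene length or GC content, each brain left out and a threshold of 0.01. The authors' FPKM was an alternative for the highest level of each cluster. The unshared exon length was added after the data were seen. Figures were drawn with matplotlib 3.10.9 in Python 3.11.15.

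Members and lists were chosen with earlier results of these data known. The genes named are the C-type members, members past the threshold, the 3 highest per listed length and the widest log2 fold change in each cluster, up to 5 genes past the threshold per other list, neighbours past it, and *Ctcf*, *Rad21*, *Smchd1*, *Dnmt3b*, *Setdb1* and *Rest*. Others are named in the text with the reason.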

Additional observations from a re-analysis of the deposited data

Results flagged for a closer look

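Each gene named by the rule above and each sum over clustered protocadherins was checked for a single brain far from the other 3 of its diet. Sums of the marker and other gene lists, and genes named for another reason, were not part of this check. The caudal sum of CDD replicate 2, given above, is thus not counted here. This was so in 2 of 98 cases, where chance gives about 4.9. *Smc1a*, a cohesin subunit gene, was at 212 CPM in CDD replicate 4, and *Smchd1*, the gene of a chromatin repressor of these clusters, was at 138 CPM in the same brain, each above the other CDD brains. Of the tested clustered protocadherins, 30 of 54 were also highest of their diet in CDD replicate 4.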

How the results depend on the processing

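The 2 members that fell were also 2 with DESeq2, limma-voom, RLE and upper-quartile scaling, 10 counts per brain, the gene length offset and the replicate block, and were the same genes. The count was 3 without a count filter (*Pcdha5* added), 1 with the GC offset and 0 at a threshold of 0.01, and 0 to 4 with each brain left out. No member rose in any of these fits. Regulators called numbered 0 at 0.01 and 0 to 9 with a brain left out. Partners called numbered 1 without a filter, with the length offset (with or without the replicate block) or with the GC offset, 0 at 0.01, and 0 to 3 with a brain left out. Locus neighbours called numbered 1 with the length or the GC offset, 0 at 0.01 and 0 to 2 with a brain left out. Protocadherins outside the clusters numbered 1 with the GC offset.

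Over all genes, 48.1% of the calls were higher in CDD brains, 58.0% with the length offset and 61.5% with the GC offset. Without ND replicate 1, 3 or 4, the calls were 688, 471 or 615 in place of 1710, and DESeq2 called 2151. The deviations of same-numbered brains had correlations of 0.105, -0.133, 0.117 and 0.232. Since that of replicate 2 was negative, the numbers were not taken as pairs, although 6 of 8 brains correlated best with their own number. With the replicate block 2 members fell, 1812 genes were called, and of the named genes *Hba-x* lost its call (log2 fold change 1.65, adjusted p = 0.0931 by edgeR). The alpha sum stayed lower in CDD brains (log2 ratio -0.22 to -0.10) with each brain left out, while the beta and gamma sums took either sign. Unshared length moved the level of *Pcdhac2* to 7.20 and of *Pcdhgc3* to 32.7 CPM per kb. The authors' FPKM was compared only for the highest member of each cluster, *Pcdhac2*, *Pcdhb20* and *Pcdhgc3*. It moved none of these levels by more than the spread between brains.

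Depth limits the 4 untested members and those with few counts, such as *Pcdha8*, whose SE was 0.379. Shared constant exons, the unknown strand setting and the unknown number of litters limit all values. Intervals and errors cover these 8 brains.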
